A study of Mus musculus with 6 samples.

Results

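The receptors through which BMP, activin and TGF-beta ligands act were examined in HC11 cells, a line of mouse mammary epithelial cells, grown with BMP7 (BMP7, 3 libraries) or without it (Ctrl, 3 libraries). The 10 genes were picked by symbol from the 55809 genes counted: *Bmpr1a*, *Bmpr1b* and *Acvr1* (BMP type I receptors), *Acvr1b* and *Tgfbr1* (activin and TGF-beta type I receptors), *Bmpr2*, *Acvr2a* and *Acvr2b* (type II receptors for BMPs and activins), *Tgfbr2* (the TGF-beta type II receptor) and *Tgfbr3* (betaglycan, the type III receptor). Of these, 9 had enough counts to be tested, and *Bmpr1b* did not. Both groups are cultures of the same line and differ by BMP7 in the medium. The methods describe HC11 cells that were starved and then given BMP7 at a stated dose for a shorter or a longer time, and neither they nor the labels say which time these libraries had. Nothing says whether the libraries of a group came from separate cultures, so that p-values measure the spread between these libraries, which may be technical.

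A ligand of this family binds a pair of type II receptors, which phosphorylate a pair of type I receptors, and the type I kinase then passes the signal to receptor-activated Smads. The BMP type I receptors act on Smad1, Smad5 and Smad9, and the activin and TGF-beta type I receptors on Smad2 and Smad3, so the set of type I and type II receptors that a cell carries sets which ligands it can read and by which Smads. BMP7 is known to use *Bmpr1a*, *Bmpr1b* and *Acvr1* together with *Bmpr2*, *Acvr2a* and *Acvr2b*, and thus shares its activin-type receptors with activin itself. Betaglycan has no kinase and presents TGF-beta, above all TGF-beta 2, to *Tgfbr2*. In the mammary gland, BMP, activin and TGF-beta signals pass between basal, luminal and stromal cells and act on growth and branching.

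The libraries held 14607938 to 23748970 counted fragments, the fewest in BMP7 library 1, and 15733 genes were tested. The BMP7 libraries are named by their column numbers, 1, 3 and 4. The BMP targets *Id1*, *Id2* and *Id3*, inhibitors of basic helix-loop-helix factors, were higher with BMP7 in every library (log2 fold changes of 4.28, 2.82 and 6.31), as the labels imply. All 8 mammary epithelial markers were expressed, with the basal keratins far above the luminal ones: *Krt14* and *Krt5* had mean Ctrl levels of 1985 and 1203 CPM per kilobase of exon, against 32.3 for *Krt8* and 34.4 for *Krt18*. These markers moved with BMP7 in all 3 libraries: *Krt17*, *Trp63* and *Krt14* were called higher (log2 fold changes of 0.89, 0.64 and 0.43), *Krt18*, *Epcam* and *Cdh1* lower (-0.67, -0.42 and -0.27), and *Krt5* and *Krt8* were not called. The part of this shift in the receptor values below was not tested. Of 6 milk and luminal genes, *Csn1s1*, *Wap* and the progesterone receptor *Pgr* had no count in any library, and *Csn2* had 1 in all. The 2 that were tested, *Elf5* and *Esr1*, were expressed, at mean Ctrl levels of 24.6 and 3.97 CPM, and were not called. BMP7 libraries 3 and 4 stood apart from the other 4: the summed level of 12 adipocyte markers was 103 and 90 CPM in them, against 29.6 in BMP7 library 1 and 16.6 to 27.7 in Ctrl, and that of 11 macrophage markers was 29.4 and 28.3 CPM against 53.2 and 52.3 to 56.4. The 7 fibroblast markers summed to 102 to 126 CPM, yet single genes moved. *Col1a2*, *Dcn* and *Col3a1* were called higher (log2 fold changes of 1.65, 1.67 and 0.65) and *Col1a1* lower (-0.41). *Pdgfra* and *Pdgfrb* were not called, and *Lum* was too low to test. *Dcn* was at 4.445 and 4.903 CPM in BMP7 libraries 3 and 4, against 1.742 in BMP7 library 1 and 0.7374 to 1.734 in Ctrl. The 6 endothelial markers summed to 13.3 to 15.9 CPM in Ctrl and 24 to 26.3 CPM with BMP7, nearly all of it *Pecam1*. Because RNA came from whole cultures, a change in the share of cells that carry a receptor and a change in RNA per cell cannot be told apart.

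To show the receptor genes behind the extremes described below, the 250 bases before the annotated start are printed for the BMP type I receptors. BMP7 is known to use all 3, yet in Ctrl they ranged from the highest level among the 10 receptors to no count. The sequences are from RefSeq on GRCm38.p6, a different build from that of the counts. They are written 5′ to 3′ on the gene's own strand, with capitals for GTCT or its complement AGAC (a Smad-binding box) and for GGCGCC (a GC-rich element bound by Smad1 and Smad5).
*Bmpr1a* (chr14:34502547-34502796, minus strand): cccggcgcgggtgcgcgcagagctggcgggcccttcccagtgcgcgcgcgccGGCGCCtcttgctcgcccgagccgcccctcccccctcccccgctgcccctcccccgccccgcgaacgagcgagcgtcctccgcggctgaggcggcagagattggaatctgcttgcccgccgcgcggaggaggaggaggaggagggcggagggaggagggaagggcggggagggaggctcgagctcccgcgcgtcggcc
*Acvr1* (chr2:58566829-58567078, minus strand): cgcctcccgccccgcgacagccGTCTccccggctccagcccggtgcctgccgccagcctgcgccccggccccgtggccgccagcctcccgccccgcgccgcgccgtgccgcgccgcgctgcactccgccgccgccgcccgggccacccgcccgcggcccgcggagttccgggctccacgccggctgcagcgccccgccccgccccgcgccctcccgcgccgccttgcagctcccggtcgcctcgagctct
*Bmpr1b*, the first of 3 annotated starts (chr3:141982265-141982514, minus strand): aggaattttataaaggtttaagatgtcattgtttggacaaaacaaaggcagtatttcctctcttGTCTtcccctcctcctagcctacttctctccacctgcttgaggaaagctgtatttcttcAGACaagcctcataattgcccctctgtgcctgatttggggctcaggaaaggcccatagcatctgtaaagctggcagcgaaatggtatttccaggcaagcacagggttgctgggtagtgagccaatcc

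RefSeq promoter windows (250 bases before the start and 50 after) were at hand for 9 of the 10 receptors, 12 windows in all. The *Bmpr1a* and *Acvr1* windows were rich in GC (79.3% and 83.7%) and in CpG (48 and 51 CpG dinucleotides), and so were those of *Acvr2a* (80.3%), *Acvr1b* (79.7%), *Tgfbr1* (74.7% in the first of its 2 windows, 52.0% in the other) and *Acvr2b* (73.3%). The *Bmpr2* and *Tgfbr2* windows had 59.3% and 59.0% GC. The 3 *Bmpr1b* windows had 48.3% to 55.7% GC and 5 or 6 CpG, close to the medians of 52.7% and 7 over all 32851 promoters. GTCT on either strand was found once each in the *Bmpr1a* (past the bases printed) and *Acvr1* windows, and 2, 8 and 3 times in the *Bmpr1b* windows, the last 2 of which overlap in part, where 88.0% of all promoters hold at least 1 match and the median is 2. GGCGCC was found once in the windows of *Bmpr1a*, *Bmpr2*, *Acvr1b* and *Tgfbr1* (its first window), against 11.9% of all promoters. No window held GTCTAGAC, which 0.213% of promoters have. TATAAA was found only in the first *Bmpr1b* window, where its 2 matches, 1 on each strand, overlap at 1 site. These are matches of letters and say nothing of binding. The coding sequences of the type I receptors fell into 2 close pairs, *Bmpr1a* with *Bmpr1b* (71.2% identical bases) and *Acvr1b* with *Tgfbr1* (70.2%), while the other type I pairs shared 62.5% to 64.8%. Among the type II receptors the closest pair was *Acvr2a* and *Acvr2b* (67.0%). No transcript of a receptor matched that of another at 95% identity over 100 bases or more, the similarity at which fragments could have been placed in either.

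The first question was which receptors HC11 cells carry before BMP7 is added. Levels of different genes were compared as CPM per kilobase of exon, that is, each count scaled to its library size after TMM normalization (CPM) and divided by the summed exon length. *Bmpr1a* led the 10 receptors in Ctrl, followed by *Acvr1b* and *Tgfbr1*, and the 3 formed the upper tier. *Bmpr2* and *Tgfbr2* came next, then *Acvr1* and *Acvr2a*, while *Acvr2b* and *Tgfbr3* were 7.47-fold or more below *Acvr2a*, and *Bmpr1b* was not detected. Thus transcripts of a type I and a type II receptor for each of BMP, activin and TGF-beta were present.

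**Figure D1:**
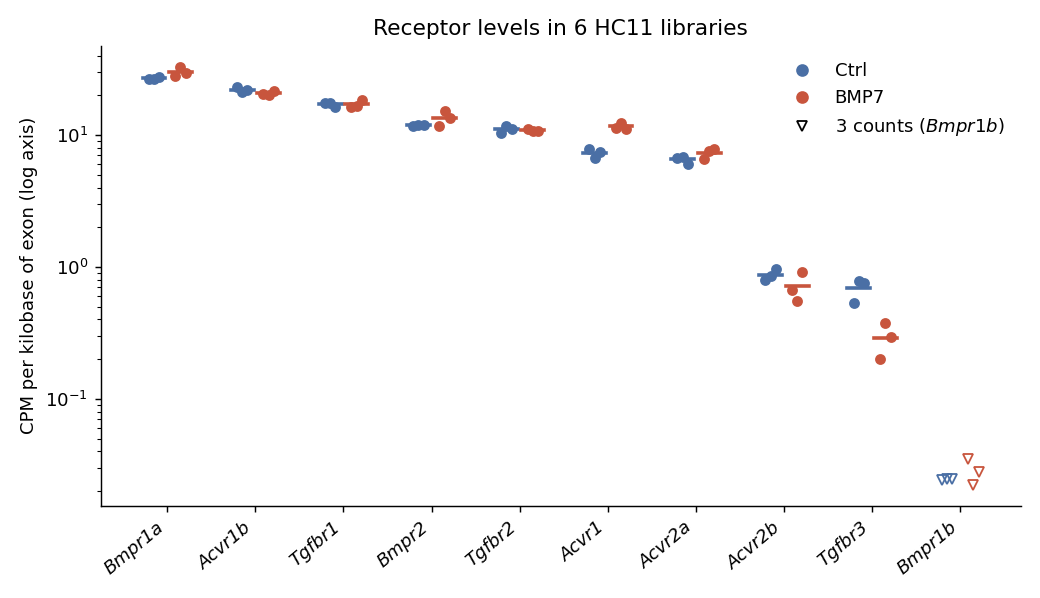
Level of each receptor in CPM per kilobase of exon (log axis) in the 3 Ctrl and 3 BMP7 libraries, ordered by the Ctrl mean. Filled points are libraries, horizontal bars are group means, and open triangles mark what 3 counts of *Bmpr1b* would give in each library. The Ctrl means run from 26.85 for *Bmpr1a* to 0.6935 for *Tgfbr3*, and *Acvr1* and *Tgfbr3* are the genes whose groups stand clearly apart.

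Of the BMP type I receptors, *Bmpr1a* (chr14:34132691-34225298 in the annotation of the counts, minus strand) was at 26.85 ± 0.581 CPM per kilobase in Ctrl (SD, n = 3), above 86.6% of the genes tested. *Acvr1* (chr2:58278656-58457169, minus strand), the receptor best known for the activating mutations of fibrodysplasia ossificans progressiva, was at 7.31 ± 0.557 CPM per kilobase, above 55.9% of the genes tested. *Bmpr1a* therefore made up 78.6% ± 1.17 of the summed per-length level of the BMP type I receptors and *Acvr1* the remaining 21.4% ± 1.17. *Bmpr1b* (chr3:141542897-141875186, minus strand), whose product is best known from cartilage and ovary, had 0 counts in all 3 Ctrl libraries and in BMP7 libraries 1 and 4, and 3 counts in BMP7 library 3. A count of 0 allows up to 3 counts, or 0.1445 to 0.209 CPM in the 5 libraries with that count, a limit that covers counting error only. Against that limit *Bmpr1a* was at least 1070-fold higher per kilobase in each Ctrl library. *Bmpr1b* was thus not detectable at this depth in 5 of the 6 libraries.

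The activin type I receptor *Acvr1b* (chr15:101071948-101111565, plus strand) stood at 22.0 ± 0.908 CPM per kilobase in Ctrl and the TGF-beta type I receptor *Tgfbr1* (chr4:47353222-47414931, plus strand) at 17.1 ± 0.7965. The ranges of the 3 Ctrl libraries did not overlap between *Bmpr1a* and *Acvr1b* (ratio of means 1.22), between *Acvr1b* and *Tgfbr1* (1.29) or between *Tgfbr1* and *Bmpr2* (1.45). Type I receptors for BMPs and for activin and TGF-beta were present at similar totals, with sums of 34.2 ± 0.976 and 39.1 ± 1.16 CPM per kilobase.

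Among the type II receptors, *Bmpr2* (chr1:59802559-59918173, plus strand) stood at 11.8 ± 0.195 CPM per kilobase in Ctrl and *Tgfbr2* (chr9:115913361-116004428, minus strand) at 11.1 ± 0.674, and their ranges overlapped. *Bmpr2* carries a long cytoplasmic tail that the other type II receptors lack. Its summed exon length was the largest of the 10, at 17983 bases, while its longest transcript had 12899. For *Acvr1* these lengths were 4829 and 3293 bases. Levels, ranges and shares per kilobase use the summed length, which puts such genes lower than the longest transcript would. *Acvr2a* (chr2:48704121-48793281, plus strand) stood at 6.52 ± 0.397 CPM per kilobase, a range that overlapped that of *Acvr1*. *Acvr2b* (chr9:119231184-119264061, plus strand) was at 0.873 ± 0.0892, lower than *Acvr2a* by a ratio of means of 7.47. Of the summed per-length level of the receptors that BMPs and activins share, *Bmpr2* made up 61.55% ± 1.175, *Acvr2a* 33.9% ± 1.69 and *Acvr2b* 4.54% ± 0.512. The betaglycan gene *Tgfbr3* (chr5:107254436-107437495, minus strand) was the least expressed of the receptors detected, at 0.6935 ± 0.136 CPM per kilobase, above 14.6% of the genes tested. *Tgfbr2* exceeded it 16.3-fold ± 2.56 in Ctrl.

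The second question was which receptors changed with BMP7. A gene was called at an adjusted p under 0.05 (edgeR's quasi-likelihood test, Benjamini-Hochberg over all 15733 genes) together with a fold change above 1.2. Of the 9 receptors tested, 1 rose (*Acvr1*), 1 fell (*Tgfbr3*) and 7 were not called. Over all genes tested 5.99% were called higher and 5.38% lower, so 1 of 9 in each direction is near the background. The median log2 fold change of the 9 receptors was 0.0015, against -0.0062 for all genes. The Ctrl and BMP7 libraries did not overlap for 3 of the 9 (*Acvr1*, *Tgfbr3* and *Bmpr1a*, 33.3%), where 29.8% of all genes tested did not overlap.

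**Figure D2:**
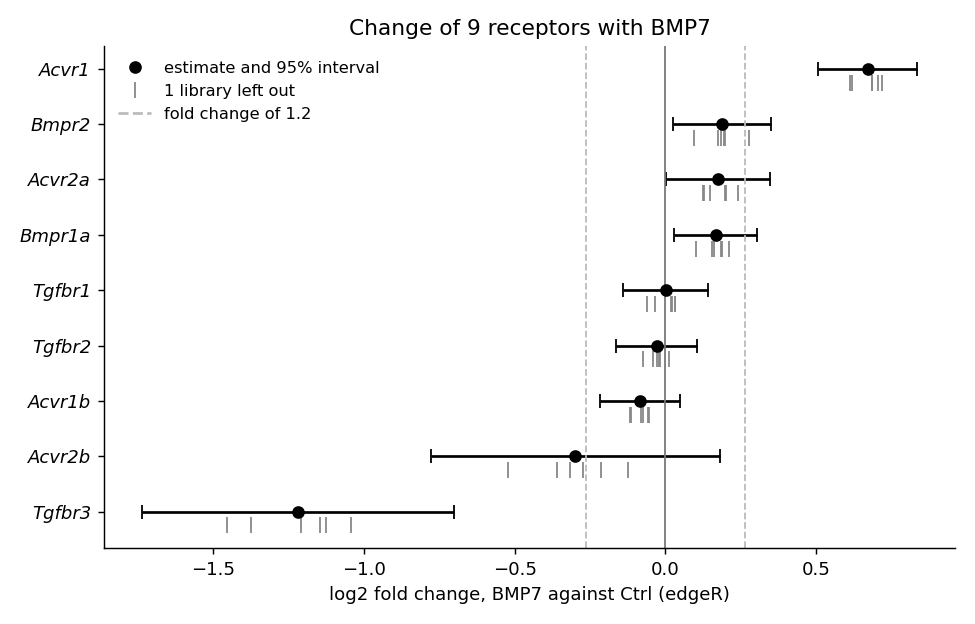
Log2 fold change of the 9 tested receptors, BMP7 against Ctrl, from edgeR. Points and bars are estimates with 95% intervals, short ticks under each are the estimates with 1 library left out, and dashed lines mark a fold change of 1.2. *Acvr1* (0.67) and *Tgfbr3* (-1.22) lie beyond the dashed lines with their whole interval, and the other 7 intervals reach across a dashed line or lie between them.

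*Acvr1* was the receptor that rose. It was at 37.61, 32.35 and 35.94 CPM in Ctrl libraries 1, 2 and 3 and at 54.85, 60.00 and 53.49 CPM in BMP7 libraries 1, 3 and 4. The groups did not overlap, with BMP7 higher throughout. BMP7 library 1, where the adipocyte markers summed to 29.6 CPM against 16.6 to 27.7 in Ctrl, lay between BMP7 libraries 3 and 4. The part of the source of those markers in the *Acvr1* values was not tested. The mean went from 35.3 ± 2.69 to 56.1 ± 3.44 CPM (SD, n = 3 each), a 1.59-fold rise (95% interval 1.42 to 1.78, log2 fold change 0.67, SE 0.08, adjusted p = 1.25e-05, edgeR). With each library left out in turn the log2 fold change lay between 0.61 and 0.72, and it was 0.64 with BMP7 libraries 3 and 4 both left out (adjusted p = 0.00106, range 2e-14 to 0.00106 over the 12 alternatives that test against no change). Tested against a fold change of 1.2 instead (glmTreat), its adjusted p was 0.000357. Per kilobase *Acvr1* went from 7.31 to 11.6, and in the order of the receptors it moved from rank 6 to rank 5, past *Tgfbr2* at 10.8 CPM per kilobase.

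*Tgfbr3* was the receptor that fell, from a level that was already low. It had 73, 104 and 102 counts in Ctrl libraries 1, 2 and 3 (3.515, 5.112 and 4.988 CPM) and 19, 55 and 35 counts in BMP7 libraries 1, 3 and 4 (1.324, 2.445 and 1.928 CPM). The groups did not overlap, with BMP7 lower throughout. The 95% Poisson interval of the highest BMP7 library, 1.84 to 3.18 CPM, reached into that of the lowest Ctrl library, 2.76 to 4.42 CPM, so single libraries are not far apart beside the counting error. The mean went from 4.54 ± 0.888 to 1.90 ± 0.561 CPM, or 0.43 of the Ctrl level (95% interval 0.301 to 0.616, log2 fold change -1.22, SE 0.24, adjusted p = 0.00265, edgeR). With a library left out the log2 fold change lay between -1.45 and -1.04 and the gene was called each time. Without both BMP7 libraries 3 and 4, the libraries with the higher adipocyte markers, the log2 fold change was -1.77. Over the same 12 alternatives the adjusted p ran from 1.9e-06 to 0.0234, and with glmTreat it was 0.00947. The part of the source of those markers in the *Tgfbr3* values was not tested. Its exons share 297 bases (4.54%) with *Gm43422* on the same strand, which had at most 1 count in any library.

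**Figure D3:**
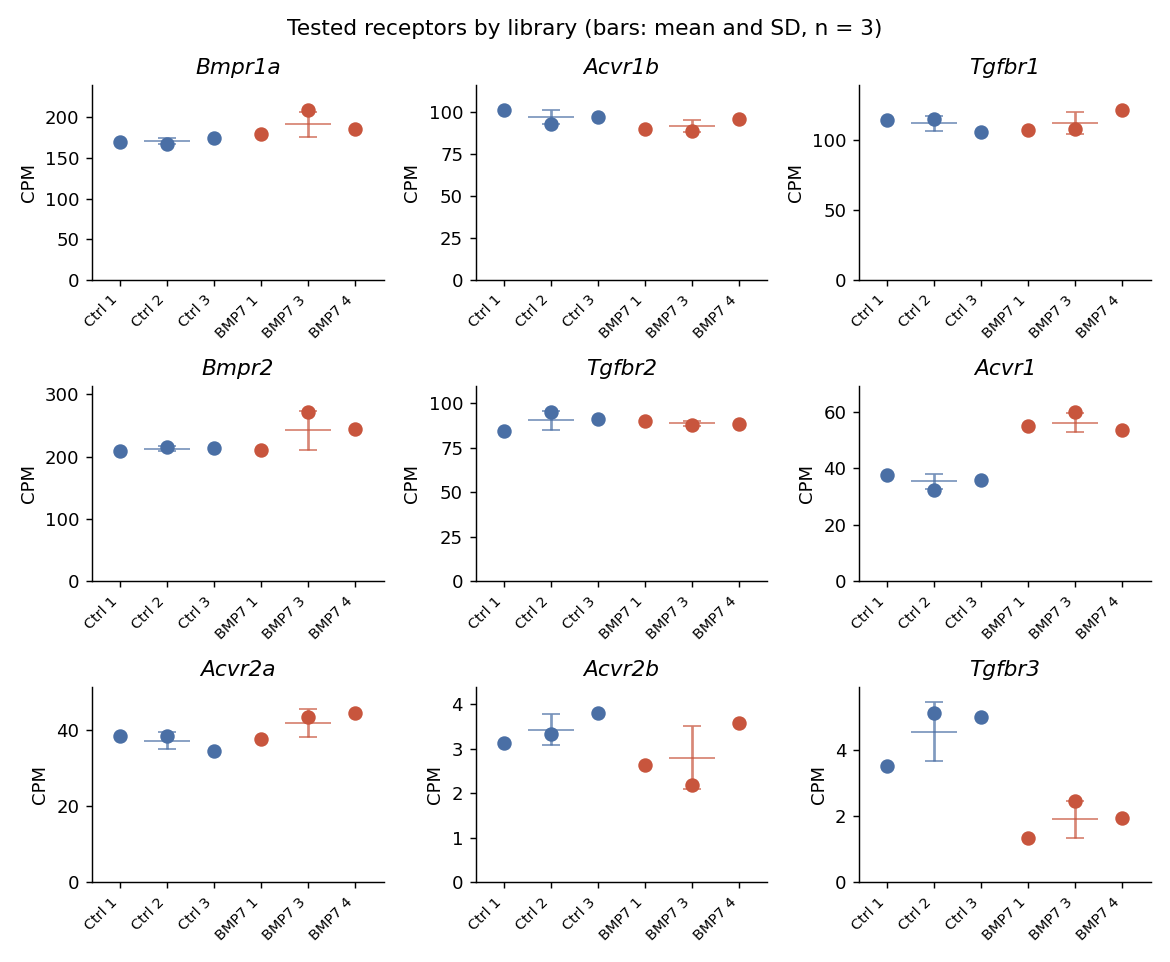
CPM of each tested receptor in every library, 3 Ctrl (blue) and 3 BMP7 (red), with the group mean and SD, each panel starting at 0 with a scale of its own. *Acvr1* is higher in all 3 BMP7 libraries (53.49 to 60.00 CPM against 32.35 to 37.61) and *Tgfbr3* lower (1.324 to 2.445 against 3.515 to 5.112), while *Bmpr2* is at its Ctrl level in BMP7 library 1 and higher in libraries 3 and 4.

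*Bmpr1a* was at 169.5, 167.5 and 174.6 CPM in Ctrl libraries 1, 2 and 3 and at 179.3, 208.7 and 186.0 CPM in BMP7 libraries 1, 3 and 4. The groups did not overlap, yet BMP7 library 1 was only slightly above Ctrl library 3. The fold change was 1.12 (95% interval 1.02 to 1.235, log2 fold change 0.17, SE 0.065), and the gene did not pass the threshold (adjusted p = 0.107, edgeR). Over the same 12 alternatives the adjusted p ran from 0.0455 to 0.607, and it was 1 with glmTreat. The lowest was without BMP7 library 1, where the log2 fold change of 0.21 was still under the fold limit. The highest was without BMP7 libraries 3 and 4, the libraries with the higher adipocyte markers, where the log2 fold change was 0.07, and it was 0.10 without library 3 alone.

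*Bmpr2* was at 208.8, 215.4 and 214.3 CPM in Ctrl libraries 1, 2 and 3 and at 210.3, 272.3 and 243.7 CPM in BMP7 libraries 1, 3 and 4. The 2 libraries above Ctrl are those with the higher adipocyte markers, and BMP7 library 1 lay within the Ctrl range. The fold change was 1.14 (95% interval 1.02 to 1.28, log2 fold change 0.19, SE 0.08, adjusted p = 0.129, edgeR), which was not called. Without BMP7 library 1 it was called, at a log2 fold change of 0.28 (adjusted p = 0.00963), which made 2 receptors higher in place of 1, and without libraries 3 and 4 the log2 fold change was -0.02 (adjusted p = 0.929), these being the ends of the range over the same 12 alternatives. With glmTreat the adjusted p was 1. The part of the source of those markers in the *Bmpr2* values was not tested.

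*Acvr2a* was at 38.33, 38.44 and 34.48 CPM in Ctrl and at 37.43, 43.29 and 44.45 CPM in BMP7 libraries 1, 3 and 4. As for *Bmpr2*, libraries 3 and 4 were above the Ctrl range and library 1 within it. The fold change of 1.13 (95% interval 1.00 to 1.27, log2 fold change 0.17, adjusted p = 0.185, edgeR) was not called, and without libraries 3 and 4 the log2 fold change was 0.02 (adjusted p = 0.955, range over the same 12 alternatives 0.0584 to 0.955). Its exons share 446 bases (7.84%) with *Orc4* on the opposite strand, and strand was not used in counting. *Acvr2b* had 65, 68 and 78 counts in Ctrl and 38, 49 and 65 in BMP7 libraries 1, 3 and 4, or 3.13 to 3.815 CPM against 2.18 to 3.58 CPM. The groups overlapped, and with a 95% interval of 0.584 to 1.13 around a fold change of 0.813 the depth could show neither a fall nor its absence (adjusted p = 0.443, edgeR).

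The type I receptors that act on Smad2 and Smad3, and the TGF-beta type II receptor, overlapped between the groups. *Acvr1b* ranged from 93.2 to 101.2 CPM in Ctrl and from 89.1 to 96.0 CPM with BMP7, a fold change of 0.944 (95% interval 0.861 to 1.03, adjusted p = 0.435). *Tgfbr1* ranged from 105.8 to 115.2 CPM in Ctrl and from 107.0 to 121.1 CPM with BMP7, a fold change of 1.00 (95% interval 0.908 to 1.10, adjusted p = 0.993). *Tgfbr2* ranged from 84.6 to 95.5 CPM in Ctrl and from 87.65 to 90.33 CPM with BMP7, a fold change of 0.981 (95% interval 0.893 to 1.08, adjusted p = 0.828). In these 3 genes the groups overlapped, and no interval reached a fold change of 1.2 in either direction.

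The make-up of the BMP type I receptors was then compared between the groups. In Ctrl, *Bmpr1a* made up 77.4%, 79.7% and 78.7% of their summed per-length level, and with BMP7 71.30%, 72.52% and 72.55% (libraries 1, 3 and 4). The groups did not overlap, and the mean share of *Bmpr1a* dropped by 6.49 percentage points to 72.1% ± 0.713, with that of *Acvr1* at 27.9% ± 0.727. The exact two-sided permutation test gave p = 0.1, the smallest that 3 libraries against 3 allow, and 0.267 after adjustment over the 8 shares compared. As *Bmpr1b* had almost no counts, the ratio of *Bmpr1a* to *Acvr1* restates these shares and is no separate evidence. It was 3.427, 3.937 and 3.694 in Ctrl and 2.485, 2.644 and 2.644 with BMP7 (exact p = 0.1, adjusted over 6 ratios 0.2). Within the type II receptors that BMPs and activins share, *Bmpr2* had 61.55% and 62.5% of the sum (exact p = 0.6) and *Acvr2a* 33.9% and 34.2% (exact p = 0.7), while *Acvr2b* had 4.16% to 5.13% in Ctrl and 2.38% to 4.09% with BMP7 (exact p = 0.1, adjusted 0.267). *Acvr1b* had 56.25% and 54.8% of the activin and TGF-beta type I sum (exact p = 0.3).

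Summed per kilobase, the BMP type I receptors went from 34.2 ± 0.976 to 41.75 ± 3.10, a ratio of 1.22, and the groups did not overlap (exact p = 0.1, adjusted over 4 sums 0.2). The activin and TGF-beta type I receptors went from 39.1 ± 1.16 to 37.9 ± 2.04 (exact p = 0.4), so that the BMP class was below the other class in every Ctrl library, 33.1 to 34.9 against 38.2 to 40.4. With BMP7 it was above it in libraries 1 and 3 (39.6 against 36.8 and 45.3 against 36.6) and about level with it in library 4 (40.4 against 40.3). These sums use the summed exon length and were not repeated with another length, on which the order of the classes may depend. The type II sum went from 19.2 ± 0.326 to 21.5 ± 2.28 (exact p = 0.3), with BMP7 library 1 at 18.95 and libraries 3 and 4 at 23.3 and 22.3. The ratio of *Tgfbr2* to *Tgfbr3* went from 14.7 to 19.2 in Ctrl to between 28.7 and 54.5 with BMP7 (exact p = 0.1, adjusted 0.2).

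The rest of the pathway was described from fixed lists of genes, which were chosen with earlier results of these data known. Over all genes tested 5.99% were called higher and 5.38% lower. Of 12 other receptors and co-receptors, 6 were tested, 2 rose and none fell. *Bambi*, a kinase-less pseudoreceptor that blocks type I receptors, went from 4.20 ± 0.800 to 6.24 ± 0.423 CPM (log2 fold change 0.57, SE 0.17, adjusted p = 0.0394, edgeR). *Rgma*, a membrane-anchored BMP co-receptor, went from 62.2 ± 1.36 to 78.0 ± 7.94 CPM (log2 fold change 0.33, SE 0.07, adjusted p = 0.00673). *Eng*, *Rgmb*, *Tgfbr3l* and *Tgfbrap1* were not called, and *Acvrl1*, *Acvr1c*, *Amhr2*, *Hjv*, *Tdgf1* and *Cfc1* were too low to test, so that the other type I receptors of the family and the nodal co-receptors added little or nothing to the receptor set. *Acvr1c*, a type I receptor known from adipocytes and named here after its values were seen, had 2, 3 and 3 counts in Ctrl, 1 in BMP7 library 1, and 12 and 11 in libraries 3 and 4, the libraries with the higher adipocyte markers.

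Of 19 regulators of the receptors or of their Smads, all were tested, 4 rose and none fell, beside 5.99% and 5.38% of all genes tested. *Tgfbrap1* is also in the list of other receptors and co-receptors. The inhibitory Smads rose most: *Smad7*, which carries ubiquitin ligases to type I receptors, from 4.95 ± 0.144 to 34.7 ± 3.30 CPM (log2 fold change 2.81, SE 0.11), and *Smad6*, which blocks BMP type I receptors, from 5.93 ± 0.0959 to 27.4 ± 2.21 CPM (2.21, SE 0.11). The nuclear repressors of Smads *Skil* (log2 fold change 0.90) and *Ski* (0.36) also rose, while *Smurf2*, a ubiquitin ligase for these receptors, passed the adjusted p (0.00736) with a fold change of 1.196 that missed the limit. The other 14, among them the type I receptor partner *Fkbp1a* and the adaptors *Zfyve9* and *Hgs*, were not called. Of the 6 receptor-activated and common Smads, *Smad9* (from 0.244 to 3.75 CPM, with 2 to 7 counts in each Ctrl library) and *Smad1* (log2 fold change 0.45, SE 0.08) rose and *Smad2*, *Smad3*, *Smad4* and *Smad5* were not called, so both Smads that rose are substrates of the BMP type I receptors.

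**Figure D4:**
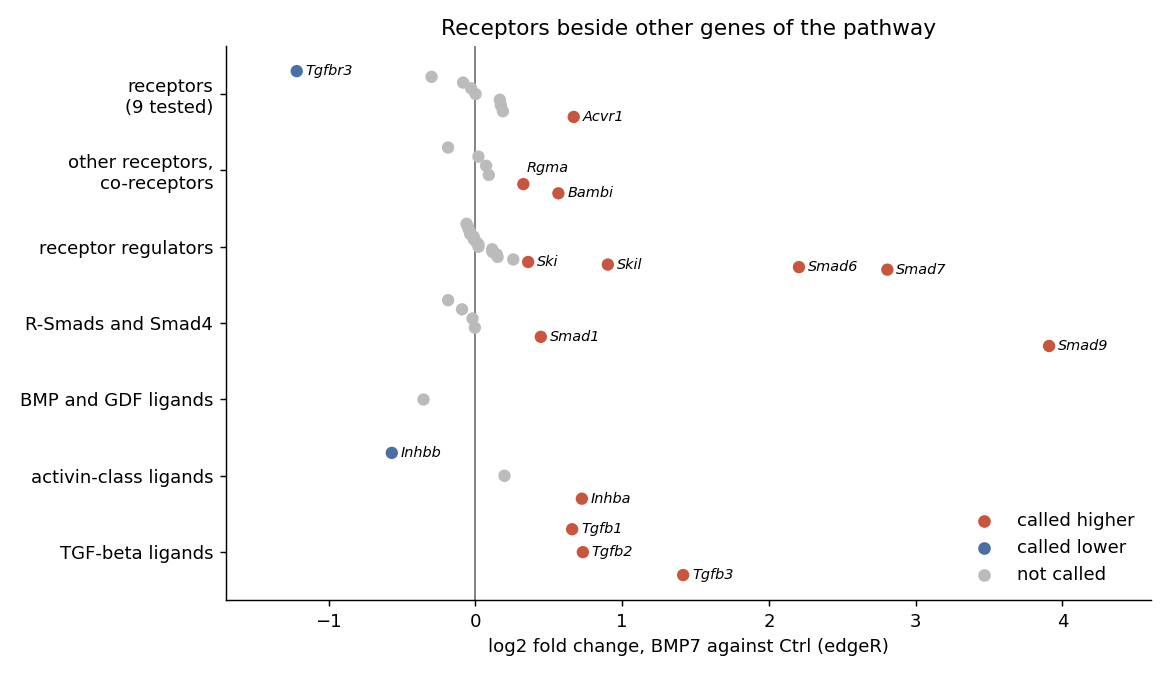
Log2 fold change, BMP7 against Ctrl, of the tested receptors and of the tested genes of 6 fixed lists around them, 1 row per list. Red and blue points passed the call rule and are named, grey points did not. The largest rises among the lists are *Smad9* (3.91), *Smad7* (2.81) and *Smad6* (2.21), while the receptors lie between -1.22 and 0.67.

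On the side of the ligands, HC11 cells had few BMP transcripts. Of 15 BMP and GDF genes 1 was tested, *Bmp7* itself, at 10.4 ± 1.21 CPM in Ctrl and 8.07 ± 0.376 CPM with BMP7 (log2 fold change -0.36, SE 0.13, adjusted p = 0.0789, edgeR), and all BMP7 libraries lay below Ctrl. Of 10 activin, nodal and myostatin ligands 3 were tested: the activin subunit *Inhba* rose from 62.3 ± 11.9 to 102.8 ± 9.29 CPM (log2 fold change 0.73, SE 0.10), *Inhbb* fell from 51.2 ± 3.16 to 34.4 ± 2.06 CPM (-0.57, SE 0.08), and *Gdf11* was not called. All 3 TGF-beta genes rose, beside 5.99% of all genes tested, *Tgfb3* by 1.42, *Tgfb2* by 0.73 and *Tgfb1* by 0.66 on the log2 scale. The TGF-beta genes and *Inhba* thus rose, *Inhbb* fell, and their signalling receptors *Tgfbr1*, *Tgfbr2*, *Acvr1b*, *Acvr2a*, *Acvr2b* and *Bmpr2* were not called. For *Acvr2a*, *Acvr2b* and *Bmpr2* the 95% intervals reached past a fold change of 1.2, so these genes cannot be called unchanged.

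The genes whose levels followed the changed receptors most closely over the 6 libraries were found by Pearson's r of log2 CPM among genes of mean CPM 10 or above (10021 compared with *Acvr1* and 10022 with *Tgfbr3*). For *Acvr1* they included *Pfn2* (r = 0.998) and *Ttll7* (0.998), and for *Tgfbr3* they were *Cluap1* (0.995), *Slfn9* (0.994) and *Eml4* (0.993). A high r says nothing of the size of a change. The log2 fold changes of *Pfn2* and *Ttll7* were 0.47 and 0.95, both called. Those of *Cluap1*, *Slfn9* and *Eml4* were -0.27, -0.27 and -0.18, against -1.22 for *Tgfbr3*, and only *Slfn9* was called. The 6 points share the split into Ctrl and BMP7, and these values are a description without a test.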

How the data were processed

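The authors aligned read pairs from poly(A) libraries with subjunc (Subread 2.0.3 per the labels) and deposited unnormalized counts of fragments per gene name with each gene's summed exon length. Per the file header, featureCounts 2.0.1 counted on exons of an mm39 annotation without strand and left out fragments of several places or genes. The methods name mm10. Libraries were grouped by their labels. Genes passing filterByExpr were normalized by TMM and tested in all 6 libraries with the quasi-likelihood test of edgeR 4.0.16 (R 4.3.3). SE is the absolute log2 fold change over the square root of F. CPM has no prior count, except that r used a prior of 2. Total counts and their exact Poisson intervals (95%) cover counting error only. Copies were searched with BLAST 2.17.0 in GENCODE vM21 transcripts, and coding sequences were aligned with Biopython 1.88. The genes named are the 10 receptors, *Id1* to *Id3*, list genes past the call rule with *Inhba*, *Tgfb1* and *Bmp7*, and the 3 genes most like the receptor with the largest rise or fall, of which 1 is not reported here. List genes that were not called, and marker genes were named with their values known. The receptors and lists were chosen with earlier results of these data known. Tests were tried on simulated data. Alternatives were DESeq2 1.42.0, other scalings, filters and call rules, and libraries left out. Proteins were not analysed here.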

Additional observations from a re-analysis of the deposited data

How the results depend on the processing

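No paired analysis was possible because the BMP7 columns are numbered 1, 3 and 4 while the labels number the BMP7 samples 1, 2 and 3, so that these columns cannot be tied to replicate numbers. *Acvr1* and *Tgfbr3* stayed called in the same direction with DESeq2, RLE and upper-quartile scaling, no filter and at least 10 counts in every library. They also stayed called with glmTreat and with each library left out. With BMP7 libraries 3 and 4 both left out their log2 fold changes were 0.64 and -1.77. The order of the 10 Ctrl means was the same with the longest transcript as length and with each Ctrl library left out. TPM gave the same order, but it divides by the same lengths, which fixes the order within a library by construction. In single Ctrl libraries *Acvr1* was above *Acvr2a* in 2 of 3. The count of receptors called higher was 1, or 1 to 2 with a library left out, the 2 arising without BMP7 library 1 through *Bmpr2* (0.28). The 1788 genes called became 748 with glmTreat, which tests against a fold change of 1.2 and is stricter by construction, and 1302 to 1966 with a library left out. Values near 0 changed sign: *Tgfbr1* was -0.017 with upper-quartile scaling, -0.0036 without a filter, -1.6e-05 with at least 10 counts, -0.060 to 0.032 with a library left out and -0.062 without BMP7 libraries 3 and 4. *Tgfbr2* ranged from -0.075 to 0.012 with a library left out, and *Bmpr2* from 0.10 to 0.28, with -0.016 without BMP7 libraries 3 and 4. The cause was not tested. With 1 BMP7 library left, its spread is assumed to be that of Ctrl. Depth limits *Acvr2b*, *Tgfbr3* and *Bmpr1b*, with at most 104 counts in a library.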
